A study of Homo sapiens with 3 samples.

Results

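The genes described here are 10 members of the TGF-beta pathway: the ligands TGFB1, TGFB2, TGFB3, INHBA and BMP4, the receptors TGFBR1, TGFBR2 and TGFBR3, and the inhibitors SMAD7 and FST. They were chosen by matching the Ensembl identifiers of the count table to these symbols. All 10 were found among 58381 genes, and all 10 had at least 10 counts in a library. The RNA was from the human bladder carcinoma line T24, with 1 library for each of 3 conditions. The Ctrl library came from cells with the treatment label Empty, which were not irradiated. The RT library came from control cells exposed to ionising radiation, for which the labels give 10 Gy from a caesium source. The RT + shHDAC6 library came from cells that carried a lentiviral shRNA against HDAC6 and were irradiated as well. The labels describe a pLKO.1 vector for the control cells and puromycin selection after infection, whereas the study's text also calls the comparator parental cells. The time from irradiation to harvest and the use of clones or pools were not given in the sources used here. There was no library of unirradiated cells with the shRNA, so the effect of the shRNA alone was not measured.

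TGF-beta ligands are secreted as latent dimers and, once active, bind TGFBR2, which recruits and phosphorylates TGFBR1. The receptor pair phosphorylates SMAD2 and SMAD3, which join SMAD4 and enter the nucleus, while activins use other receptors to reach the same SMADs and bone morphogenetic proteins mainly use SMAD1, SMAD5 and SMAD9. In carcinomas the pathway is known both for arrest of epithelial growth and for matrix production, loss of epithelial character and motility.

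The libraries held between 35424086 and 41811165 counts on 28616 to 31034 genes. Mitochondrially encoded RNA took 3.75% of the counts in Ctrl, 6.09% with RT and 5.51% with RT + shHDAC6. Levels are given as deposited counts and after TMM scaling as TMM CPM (counts in each 1000000 counts of the scaled library), and ratios as log2 ratios of the latter. Relative to scaling by library totals, TMM moved every log2 ratio of RT against Ctrl by 0.22, those of RT + shHDAC6 against RT by -0.084 and those of RT + shHDAC6 against Ctrl by 0.13. No difference could be checked in replicates, since each condition had 1 library, and p-values are not given. The range in parentheses after a ratio is its 95% exact binomial (Clopper-Pearson) interval. It covers counting error only, as the reads carried no molecular identifiers and need not stem from different molecules. HDAC6 (ENSG00000094631), the target of the shRNA, had 3098 counts in Ctrl, 2383 with RT and 2170 with RT + shHDAC6. Its log2 ratio was -0.20 (-0.28 to -0.11) for RT + shHDAC6 against RT, only 1.15-fold lower. The study reported lower HDAC6 mRNA by qPCR and lower protein by Western blot in its knockdown cells, so these libraries show little of that difference in RNA. The keratin genes KRT7 and KRT18, the urothelial factor GATA3 and the mesenchymal filament gene VIM were present in every library, at 597 counts (KRT7 in RT + shHDAC6) or more. The uroplakins UPK2 and UPK3A, which define differentiated urothelium, had 0 to 3 counts in each, and UPK1A had 18, 2 and 2. All 6 fibroblast and all 4 endothelial marker genes examined had counts in every library, and their levels are given beside the target genes that moved with them.

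TGFB2, INHBA and FST were the members whose level in RT + shHDAC6 was more than 2-fold below RT, and the sequences around their transcription starts are therefore shown. Each is a RefSeq window of GRCh38.p14 that runs from 250 bases before to 50 bases after an annotated start, on the strand of the gene. Capitals mark the letters CAGAC (the core of SMAD-binding elements), TGACGT (the core of the cAMP response element) and TATAAA (the TATA box), in either orientation. These motifs were chosen after the values had been seen, and a match is only a description of letters.
TGFB2, chr1:218345086-218345385, plus strand: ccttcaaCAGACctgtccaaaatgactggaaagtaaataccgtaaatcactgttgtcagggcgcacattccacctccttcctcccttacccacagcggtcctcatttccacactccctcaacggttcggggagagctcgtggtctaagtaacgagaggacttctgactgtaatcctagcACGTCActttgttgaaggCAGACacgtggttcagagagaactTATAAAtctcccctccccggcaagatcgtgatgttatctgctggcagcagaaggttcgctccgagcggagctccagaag
INHBA, chr7:41703041-41703340, minus strand: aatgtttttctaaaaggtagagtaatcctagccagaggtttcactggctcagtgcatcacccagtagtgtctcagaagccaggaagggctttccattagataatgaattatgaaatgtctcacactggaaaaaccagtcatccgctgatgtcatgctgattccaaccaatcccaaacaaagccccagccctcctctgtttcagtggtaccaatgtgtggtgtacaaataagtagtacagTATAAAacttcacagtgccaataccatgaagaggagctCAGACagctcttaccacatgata
FST, chr5:53480379-53480678, plus strand: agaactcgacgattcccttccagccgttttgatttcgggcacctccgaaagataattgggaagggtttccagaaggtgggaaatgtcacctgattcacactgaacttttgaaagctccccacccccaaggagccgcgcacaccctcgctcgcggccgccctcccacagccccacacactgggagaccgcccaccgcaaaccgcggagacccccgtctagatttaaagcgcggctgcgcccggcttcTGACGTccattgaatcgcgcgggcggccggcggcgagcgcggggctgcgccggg
The TGFB2 window held CAGAC at positions -243 and -53 from the start, TATAAA at -29 and, on the opposite strand, TGACGT at -71. The INHBA window held TATAAA at -11 and CAGAC at 28, and the FST window held TGACGT at -4. Across all 35116 RefSeq windows of this length, CAGAC was present in 45.3%, TGACGT in 7.98% and TATAAA in 11.5%. The TEAD motif GGAATG, present in 14.0% of all windows, was found in the TGFB2 window only, on the opposite strand at -185. The palindromic SMAD element GTCTAGAC (0.202% of all windows) and the AP-1 motif TGAGTCA (4.95%) were in none of the 3 windows. The GC content was 51.7% for TGFB2, 43.3% for INHBA and 63.7% for FST, beside a median of 58.7% over all windows, and no 2 capital matches overlapped.

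TGFB1 (ENSG00000105329, chromosome 19 from 41301587 to 41353922 of GRCh38), the most widely expressed TGF-beta isoform, had 9109 counts in Ctrl, 10331 with RT and 9597 with RT + shHDAC6. These correspond to 201, 308 and 274 TMM CPM, so that both irradiated libraries lay above Ctrl. The log2 ratio was 0.62 (0.58 to 0.66) for RT against Ctrl and -0.17 (-0.21 to -0.13) for RT + shHDAC6 against RT. In bulk RNA a smaller number of cells of a kind and less RNA per cell cannot be told apart, here and in what follows.

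TGFB2 (ENSG00000092969, chromosome 1 from 218345336 to 218444619), the isoform that depends most on the coreceptor TGFBR3 for binding, had 731 counts in Ctrl, 868 with RT and 228 with RT + shHDAC6. At 16.1, 25.9 and 6.51 TMM CPM, RT was the highest library and RT + shHDAC6 the lowest, below Ctrl as well. The log2 ratio was 0.68 (0.54 to 0.83) for RT against Ctrl and -1.99 (-2.21 to -1.78), or 3.97-fold lower, for RT + shHDAC6 against RT. Against Ctrl, RT + shHDAC6 was 2.48-fold lower (log2 ratio -1.31, -1.53 to -1.09). TGFB2 shares 22.7% of its exon length with TGFB2-OT1 on its own strand and 11.6% with TGFB2-AS1 on the opposite strand. TGFB2-OT1 had 0 counts in each library and TGFB2-AS1 had 0, 1 and 0. How reads that match several genes were assigned is not stated. TGFB2 was among the genes that the study itself named from these libraries, so its direction here is not independent evidence.

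TGFB3 (ENSG00000119699, chromosome 14 from 75958097 to 75983011), the isoform known from palate and mammary development, had 297 counts in Ctrl, 203 with RT and 181 with RT + shHDAC6. Its 6.55, 6.05 and 5.17 TMM CPM were the most even of the 3 isoforms, with a log2 ratio of -0.11 (-0.38 to 0.15) for RT against Ctrl and -0.23 (-0.53 to 0.07) for RT + shHDAC6 against RT. Both intervals include 0. For RT + shHDAC6 against Ctrl the log2 ratio was -0.34 (-0.62 to -0.07).

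INHBA (ENSG00000122641, chromosome 7 from 41667168 to 41705834) encodes the beta A subunit, which as a homodimer forms activin A. It had 1345 counts in Ctrl, 3075 with RT and 830 with RT + shHDAC6, that is 29.7, 91.7 and 23.7 TMM CPM. RT stood apart from the other 2 libraries, with a level 3.09-fold that of Ctrl (log2 ratio 1.63, 1.54 to 1.72). RT + shHDAC6 was 3.87-fold lower than RT (log2 ratio -1.95, -2.06 to -1.84) and also below Ctrl (log2 ratio -0.32, -0.45 to -0.20). Its antisense neighbour INHBA-AS1, which overlaps 2.99% of its exon length, had 6, 6 and 4 counts.

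FST (ENSG00000134363, chromosome 5 from 53480626 to 53487134) encodes follistatin, a secreted protein that binds activins and keeps them from their receptors. It had 171 counts in Ctrl, 468 with RT and 112 with RT + shHDAC6, that is 3.77, 14.0 and 3.20 TMM CPM. As with INHBA, RT was the high library: 3.70-fold above Ctrl (log2 ratio 1.89, 1.63 to 2.15) and 4.36-fold above RT + shHDAC6 (log2 ratio of RT + shHDAC6 against RT -2.13, -2.44 to -1.83). For RT + shHDAC6 against Ctrl the log2 ratio was -0.24 and its interval (-0.59 to 0.12) included 0. The number of INHBA counts per FST count, which does not depend on the scaling between libraries, was 7.87 (6.70 to 9.28) in Ctrl, 6.57 (5.96 to 7.26) with RT and 7.41 (6.08 to 9.11) with RT + shHDAC6. These 3 intervals overlap. By contrast, INHBA counts per TGFB2 count were 1.84 (1.68 to 2.02) in Ctrl and higher, at 3.54 (3.28 to 3.82) and 3.64 (3.14 to 4.23), in RT and RT + shHDAC6. The gene pairs for such ratios were chosen after the values had been seen.

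BMP4 (ENSG00000125378, chromosome 14 from 53949736 to 53958761), a bone morphogenetic protein, was the member with the fewest counts: 34 in Ctrl, 14 with RT and 22 with RT + shHDAC6, or 0.750, 0.417 and 0.628 TMM CPM. All of its intervals included 0, with log2 ratios of -0.85 (-1.86 to 0.09) for RT against Ctrl and 0.59 (-0.44 to 1.67) for RT + shHDAC6 against RT. A difference was therefore not detectable at this depth. Of its exon length, 16.3% is shared with ENSG00000287156 on the opposite strand.

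Of the receptors, TGFBR1 (ENSG00000106799, chromosome 9 from 99104038 to 99154192), the kinase that phosphorylates SMAD2 and SMAD3, had 1592 counts in Ctrl, 1466 with RT and 1251 with RT + shHDAC6 (35.1, 43.7 and 35.7 TMM CPM). With TMM, RT was highest, at a log2 ratio of 0.32 (0.21 to 0.42) against Ctrl, which was only 0.10 with library totals. The TMM-scaled levels in Ctrl and RT + shHDAC6 did not differ beyond counting error (log2 ratio 0.03, -0.08 to 0.13). With library totals this ratio was -0.11, outside that interval, so the statement depends on the scaling. TGFBR2 (ENSG00000163513, chromosome 3 from 30606601 to 30694142), the kinase that binds ligand first, had 6693, 5442 and 4462 counts (148, 162 and 127 TMM CPM). RT + shHDAC6 was the lowest library for TGFBR2, at a log2 ratio of -0.35 (-0.41 to -0.29) against RT, whereas the ratio of RT against Ctrl was 0.14 (0.09 to 0.19) with TMM and -0.08 with library totals.

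TGFBR3 (ENSG00000069702, chromosome 1 from 91680343 to 91906335) encodes betaglycan, a coreceptor that presents TGFB2 to TGFBR2 and also binds inhibins. It had 3834 counts in Ctrl, 6797 with RT and 5970 with RT + shHDAC6, or 84.5, 203 and 170 TMM CPM. Both irradiated libraries lay well above Ctrl: RT 2.40-fold (log2 ratio 1.26, 1.20 to 1.32) and RT + shHDAC6 2.02-fold (log2 ratio 1.01, 0.95 to 1.07). Between the irradiated libraries the log2 ratio was only -0.25 (-0.30 to -0.20). Counts of TGFBR3 per TGFBR2 count were 0.573 (0.550 to 0.596) in Ctrl, 1.25 (1.21 to 1.29) with RT and 1.34 (1.29 to 1.39) with RT + shHDAC6. For the kinases, counts of TGFBR1 per TGFBR2 count moved over a narrower range, from 0.238 in Ctrl to 0.269 in RT and 0.280 in RT + shHDAC6.

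SMAD7 (ENSG00000101665, chromosome 18 from 48919853 to 48950965), the inhibitory SMAD that is itself induced by TGF-beta and blocks the activated receptor, had 513 counts in Ctrl, 581 with RT and 522 with RT + shHDAC6. At 11.3, 17.3 and 14.9 TMM CPM, it was lowest in Ctrl, with a log2 ratio of 0.62 (0.44 to 0.79) for RT against Ctrl and -0.22 (-0.39 to -0.04) for RT + shHDAC6 against RT. SMAD7 counts per TGFB1 count were 0.0563 (0.0514 to 0.0616) in Ctrl, 0.0562 (0.0516 to 0.0611) with RT and 0.0544 (0.0497 to 0.0594) with RT + shHDAC6, and these intervals overlap.

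**Figure D1:**
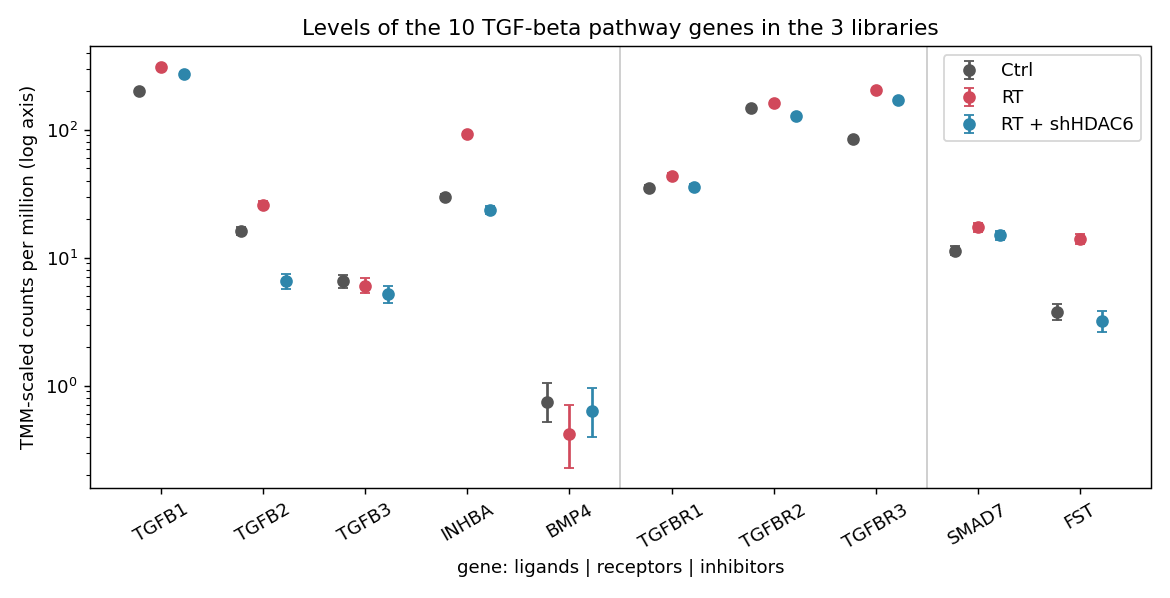
Levels of the 10 genes in the Ctrl, RT and RT + shHDAC6 libraries, as TMM CPM on a log axis, with ligands, receptors and inhibitors from left to right and bars for 95% Poisson intervals of the counts. INHBA and FST are highest in RT (91.7 and 14.0), TGFB2 is lowest in RT + shHDAC6 (6.51), and TGFBR3 is high in both irradiated libraries (203 and 170).

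Levels of different genes were compared per length, in TPM (transcripts in each 1000000, after division by length), with exon lengths of GENCODE release 44. In Ctrl the order was TGFB1 (301 TPM), TGFBR2 (105), TGFBR3 (48.2), TGFBR1 (21.5), INHBA (17.5), SMAD7 (14.0), TGFB2 (13.0), FST (6.70), TGFB3 (6.13) and BMP4 (1.18). The pair SMAD7 and TGFB2 and the pair FST and TGFB3 did not differ beyond counting error. In RT, TGFBR2 (92.6 TPM) and TGFBR3 (92.4) were level, INHBA (43.3) stood above TGFBR1 (21.4), and TGFBR1, FST (19.8), SMAD7 (17.2) and TGFB2 (16.7) each overlapped with the next in order. In RT + shHDAC6, TGFBR3 (83.3 TPM) was above TGFBR2 (78.0), and INHBA (12.0) was below SMAD7 (15.8). FST (4.87), TGFB2 (4.51) and TGFB3 (4.15) were then close together, each overlapping with the next. TGFB1 made up 94.0%, 94.6% and 97.6% of the summed TPM of the 3 TGF-beta isoforms in Ctrl, RT and RT + shHDAC6. The share of TGFB2 in this sum was 4.07%, 4.29% and 1.25%, and that of TGFB3 was 1.92%, 1.16% and 1.15%. Counts of TGFB2 per TGFB1 count showed the same order without scaling, at 0.0803 (0.0743 to 0.0865), 0.0840 (0.0783 to 0.0901) and 0.0238 (0.0207 to 0.0271).

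For RT against Ctrl, which addresses the response of the pathway to irradiation, TGFBR3, INHBA and FST were at least 2-fold higher in RT (3 of 10) and 0 members were 2-fold lower. With library totals these counts were 3 higher and 1 lower, BMP4 being the latter. Among the 20267 genes that reached 10 counts in the higher library, 4.81% were at least 2-fold higher and 9.17% at least 2-fold lower. The median log2 ratio was 0.62 over the members and -0.06 over all genes tested. INHBA lay above 99.1%, FST above 99.5% and TGFBR3 above 97.6% of the genes tested. With a fold of 1.5, 6 members were higher (TGFB1, TGFB2 and SMAD7 in addition) and BMP4 was lower, beside 35.0% of all genes in either direction. With library totals TGFB1, TGFB2 and SMAD7 lay below 1.5-fold, at log2 ratios of 0.399, 0.465 and 0.397. The NOISeq procedure that the study used called 9 members, all but TGFB3, and it called 42.2% of 32923 genes with a count. Those genes include ones below 10 counts.

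The ratio of RT + shHDAC6 against RT compares irradiated cells with and without the shRNA, and HDAC6 RNA itself was only 1.15-fold lower in it. TGFB2, INHBA and FST were at least 2-fold lower (3 of 10) and 0 members were 2-fold higher. In this comparison 4.35% of 19013 genes were at least 2-fold higher and 4.78% at least 2-fold lower. The members' median was -0.27, beside -0.003 over all genes tested. The share of tested genes with a lower ratio was 0.868% for FST, 1.07% for TGFB2 and 1.13% for INHBA. With a fold of 1.5 the same 3 members were lower and BMP4 was higher, beside 20.0% of all genes in either direction. NOISeq called 8 members lower, all but TGFB3 and BMP4, and called 31.0% of 31682 genes with a count, in either direction. Those genes include ones below 10 counts, which no member was in its higher library, so the share is not a like background. This comparison and the preceding one share the RT library, in which INHBA and FST were highest, so the ratios in opposite directions are not separate observations.

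For RT + shHDAC6 against Ctrl, TGFBR3 was at least 2-fold higher and TGFB2 at least 2-fold lower, beside 4.91% and 10.5% of 20374 genes. The ratio of TGFBR3 lay just past the threshold and was 0.88 with library totals, which left 0 members higher and 1 lower. The members' median was -0.23, beside -0.06 over all genes tested. With a fold of 1.5 the count was again 1 higher and 1 lower, beside 34.4% of all genes in either direction. NOISeq called 3 members higher and 4 lower, beside 40.4% of 33073 genes with a count, which again include genes below 10 counts. TGFBR3 lay above 95.3% and TGFB2 above 6.69% of the genes tested.

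**Figure D2:**
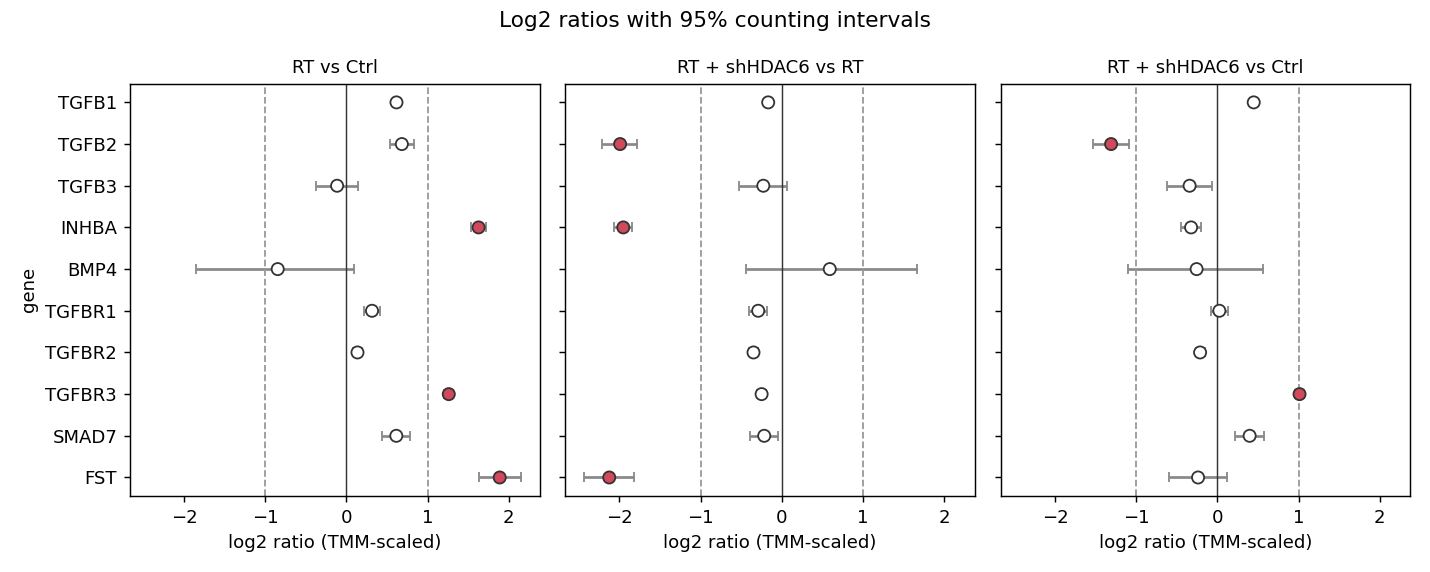
Log2 ratios of the 10 genes (vertical axis) in the 3 comparisons after TMM scaling, with bars for 95% Clopper-Pearson intervals of the counts, dashed lines at a 2-fold difference and red points for genes past it. FST and INHBA lie at 1.89 and 1.63 in RT against Ctrl and at -2.13 and -1.95 in RT + shHDAC6 against RT, and TGFB2 is past the lower line in both comparisons of RT + shHDAC6.

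The genes most like the members with the widest range of levels, FST and TGFB2, were sought among 12732 genes with at least 100 counts, by the distance between the log2 ratios of RT against Ctrl and of RT + shHDAC6 against RT. The gene nearest to FST was KIT, a receptor tyrosine kinase that the study also named, with 560 counts in Ctrl, 1622 with RT and 376 with RT + shHDAC6 (distance 0.0938). INHBA followed at a distance of 0.312, and 5 genes lay within 0.5 of FST. Nearest to TGFB2 were PDE3B, a phosphodiesterase, with 1394, 1800 and 502 counts (distance 0.149), and the zinc finger gene ZNF208 with 238, 254 and 69 counts (distance 0.161). TGFB2 had more such neighbours than FST, with 39 genes within 0.5.

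Other genes of the pathway were described in 7 lists that hold 95 genes. In RT against Ctrl, 81 of them could be read, with a median log2 ratio of -0.01. Of these, 9.88% were at least 2-fold higher and 4.94% at least 2-fold lower, beside 4.81% and 9.17% of all genes tested. The extracellular antagonists had a median of 0.58, with 2 of 8 at least 2-fold higher. These were FSTL3, a follistatin relative that also binds activins, with 361 counts in Ctrl, 840 with RT and 530 with RT + shHDAC6 (1.65 for RT against Ctrl), and the BMP-binding protein gene BMPER with 30, 104 and 253 counts (2.23). BMPER was the only gene of these lists at least 2-fold higher with RT + shHDAC6 than with RT (1.22, 0.89 to 1.56), beside 4.35% of all genes tested. FSTL3 was lower there by less than 2-fold (-0.73, -0.89 to -0.57), as were the BMP antagonists NOG (-0.96, -1.14 to -0.78) and TWSG1 (-0.77, -0.82 to -0.71).

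Among 10 other receptors, ENG, which encodes the coreceptor endoglin and is related to TGFBR3, had 5902, 11532 and 9718 counts. Like TGFBR3 it was high in both irradiated libraries, with log2 ratios of 1.40 (1.36 to 1.45) for RT and 1.09 (1.05 to 1.14) for RT + shHDAC6 against Ctrl, the second of which was 0.96 with library totals. ENG was, with TMM, the only receptor of this list past 2-fold in either of these comparisons, and 0 were past it in RT + shHDAC6 against RT. Among all genes tested, 4.81% were at least 2-fold higher in RT against Ctrl and 4.91% in RT + shHDAC6 against Ctrl. The activin receptor genes ACVR1B and ACVR2A had 1088 and 536 counts in Ctrl, 1201 and 643 in RT, and 1047 and 545 in RT + shHDAC6. Their log2 ratios for RT + shHDAC6 against RT were -0.26 (-0.38 to -0.14) and -0.30 (-0.47 to -0.13).

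Of the 23 other ligands, 13 could be read in RT against Ctrl. Of these, 1 was at least 2-fold higher and 2 at least 2-fold lower, beside 4.81% and 9.17% of all genes tested. The former was AMH, the anti-Mullerian hormone gene, with 408, 629 and 540 counts (1.06, and 0.84 with library totals). Of the 2 past 2-fold downwards, GDF15, a stress-responsive member of the superfamily, had 679, 178 and 234 counts (-1.50, -1.74 to -1.26). The second, the myostatin gene MSTN, had 11, 3 and 5 counts and an interval that included 0. INHBB and INHA, whose products could pair with that of INHBA, were at 0.800 to 1.72 TPM, whereas INHBA was at 12.0 to 43.3 TPM. The list median was 0.06 with TMM and -0.16 with library totals, so its direction depended on the scaling.

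The 7 other SMADs had a median of -0.28 in RT against Ctrl and 0.04 in RT + shHDAC6 against RT, with 0 past 2-fold in any comparison. SMAD3, a direct substrate of TGFBR1, had 6141, 3665 and 4115 counts, with a log2 ratio of -0.31 (-0.37 to -0.25) for RT against Ctrl. The intracellular brakes, ubiquitin ligases and corepressors that limit SMAD signals, had 0 genes past 2-fold in RT against Ctrl and in RT + shHDAC6 against RT. In RT + shHDAC6 against Ctrl, 2 of the 10 were at least 2-fold lower, beside 10.5% of all genes tested. The 2 were SKIL, a SMAD corepressor with 3585, 2211 and 1180 counts (-1.23, -1.33 to -1.13), and PMEPA1 with 168, 85 and 60 counts (-1.11, -1.56 to -0.68).

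The latency list holds genes of families whose members store or activate latent TGF-beta, but not every product, such as LTBP2, need do so. In RT + shHDAC6 against RT, 11 of its 12 readable genes had a ratio below 0 under each scaling compared, beside 9592 of 19013 genes tested with TMM. The list median was -0.39, beside -0.003 over all genes, and 0 of its genes were past 2-fold. The latent TGF-beta binding proteins were lowest among them: LTBP1 had 1668, 1423 and 772 counts (-0.94, -1.07 to -0.82), LTBP3 had 2577, 2027 and 1140 (-0.89, -0.998 to -0.787) and LTBP2 had 2410, 1581 and 939 (-0.81, -0.93 to -0.70). LTBP4, which binds TGFB1 in particular, differed from them with 9888, 11763 and 10461 counts (-0.23, -0.27 to -0.19). The integrin genes ITGAV and ITGB5, whose products release active TGF-beta, had ratios of -0.58 (-0.62 to -0.54) and -0.68 (-0.72 to -0.64). The study had itself named ITGAV and THBS1 from these libraries, so the list that holds them is not independent of its results.

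**Figure D3:**
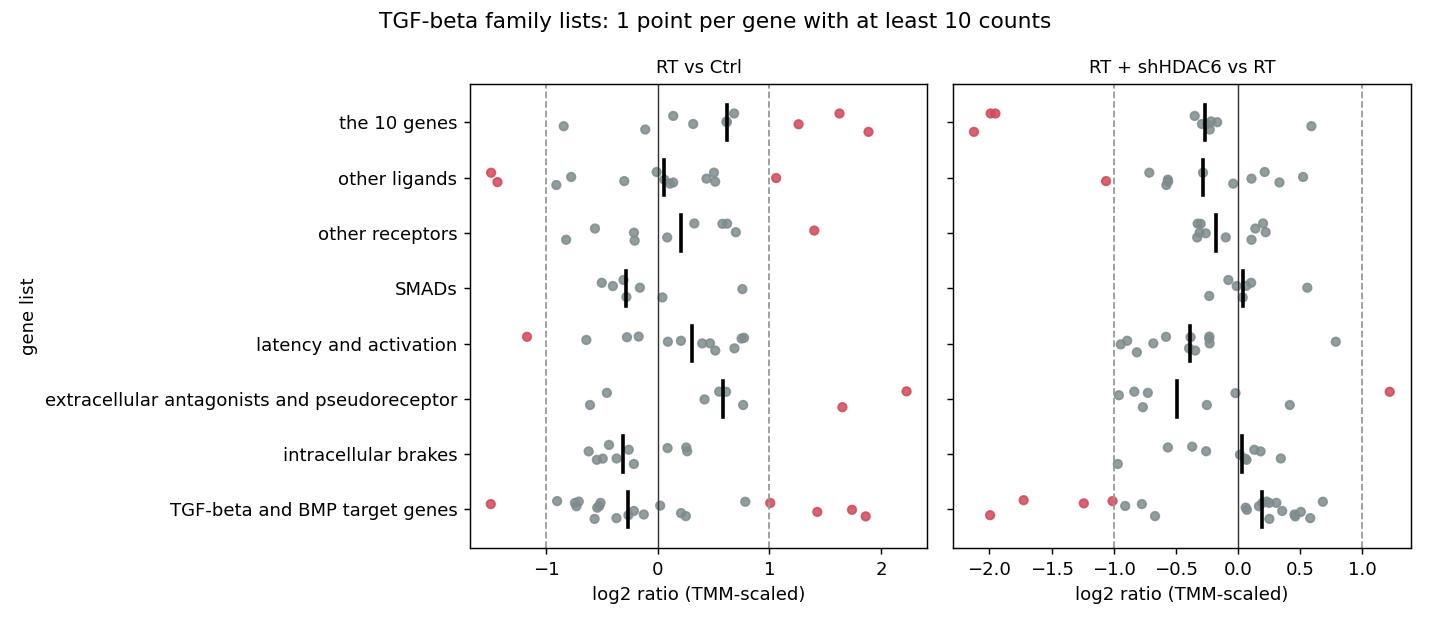
Log2 ratios after TMM scaling for each gene that reached 10 counts in the higher library (points), by gene list, in RT against Ctrl and in RT + shHDAC6 against RT, with black bars for list medians, dashed lines at a 2-fold difference and red points past it. In RT + shHDAC6 against RT, 11 of 12 latency genes lie below 0, and the target genes divide into 4 past the lower line and 14 above 0.

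The target list holds 21 genes that TGF-beta or bone morphogenetic proteins are known to induce or repress. In RT against Ctrl, 4 were at least 2-fold higher and 1 was 2-fold lower, beside 4.81% and 9.17% of all genes. The median was -0.27, beside -0.06 over all genes. CCN2, a matricellular protein gene that both TGF-beta and YAP induce, had 2726 counts in Ctrl, 6734 with RT and 2127 with RT + shHDAC6. It was highest in RT, at a log2 ratio of 1.74 (1.67 to 1.81) against Ctrl, and RT + shHDAC6 lay at -1.73 (-1.80 to -1.65) against RT. INHBA and FST were also highest in RT, and for CCN2 the TMM-scaled levels in RT + shHDAC6 and Ctrl did not differ beyond counting error (0.015, -0.067 to 0.097). CCN2 shares 11.9% of its exon length with LINC01013 on the opposite strand.

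The BMP-responsive inhibitors of differentiation ID1 and ID3 took another course. ID1 had 3951, 5871 and 7589 counts and ID3 had 659, 1312 and 1569, so that RT + shHDAC6 was the highest library for both. Their log2 ratios were 1.01 and 1.43 for RT against Ctrl, the first being 0.79 with library totals, and 1.32 and 1.63 for RT + shHDAC6 against Ctrl. CDKN2B, a cell cycle inhibitor that TGF-beta induces in epithelial cells, was the target past 2-fold downwards in RT against Ctrl, with 2037, 533 and 625 counts (-1.50, -1.64 to -1.36).

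In RT + shHDAC6 against RT, 4 of the 21 targets (19.0%) were at least 2-fold lower and 0 were 2-fold higher, beside 4.78% and 4.35% of all genes. A ratio above 0 was found for 14 targets, beside 9421 of 19013 genes. With library totals 3 targets were 2-fold lower. Beside CCN2 the 4 lower targets included ANGPTL4, a lipoprotein lipase inhibitor, with 8318, 4755 and 1245 counts (-2.00, -2.09 to -1.91). The smooth muscle gene TAGLN, with 731, 930 and 482 counts, was another (-1.01, and -0.93 with library totals). TAGLN shares 38.1% of its exon length with ENSG00000280143 on its own strand and 34.1% with PCSK7 on the opposite strand, so its counts are uncertain. ANGPTL4 was lowest in RT + shHDAC6, as TGFB2 was, and so were TIMP3, a metalloproteinase inhibitor (3755, 1944 and 1187 counts), and SNAI2, a repressor of epithelial genes (403, 178 and 99 counts). In RT + shHDAC6 against Ctrl the log2 ratios were -2.37 (-2.45 to -2.28) for ANGPTL4, -1.65 (-1.98 to -1.33) for SNAI2 and -1.29 (-1.38 to -1.19) for TIMP3.

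Some targets are also made by stromal cells. COL1A1 and COL1A2, which stand in both the target list and the fibroblast list, had ratios of -0.54 (-0.61 to -0.47) and -0.57 (-0.65 to -0.49) for RT against Ctrl and of 0.23 (0.15 to 0.31) and 0.36 (0.27 to 0.44) for RT + shHDAC6 against RT. All 6 fibroblast markers had a ratio below 0 in RT against Ctrl (median -0.56), and 5 of the 6 had a ratio above 0 in RT + shHDAC6 against RT (median 0.30). Among all genes tested, 10992 of 20267 lay below 0 in the first comparison and 9421 of 19013 above 0 in the second. The summed level of the fibroblast markers was 238 TMM CPM in Ctrl, 162 with RT and 196 with RT + shHDAC6. The 4 endothelial markers went the same way, with medians of -0.60 and 0.40 and summed levels of 25.1, 15.8 and 21.1 TMM CPM, and blood cell markers stood at 3.79, 2.80 and 2.57. The pattern was not particular to stromal markers: 7 of 9 epithelial markers had a ratio below 0 in RT against Ctrl (median -0.46) and 6 of 8 a ratio above 0 in RT + shHDAC6 against RT (median 0.29). KRT8, KRT19, KRT5, EPCAM and CDH1 did both, as did VIM (-0.28 and 0.31). No defining marker of fibroblasts or endothelium was at 0, and the part of such RNA in the target genes' levels was not tested. INHBA, FST and TGFB2 were highest in RT, where the summed fibroblast and endothelial levels were lowest. The part of such RNA in the levels of INHBA, FST and TGFB2 was not tested either.

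A few identity markers of the cells went the way of TGFB2, INHBA and FST between the irradiated libraries, but most did not. KRT7, a simple-epithelial keratin, had 3533 counts in Ctrl, 3854 with RT and 597 with RT + shHDAC6, which was 6.74-fold below RT (-2.75, -2.88 to -2.63). GATA3 had 2320, 1423 and 709 counts (-1.07, -1.20 to -0.94) and CDH2, which encodes N-cadherin, had 6788, 8613 and 4379 (-1.04, -1.09 to -0.98). Only KRT7 of these stayed past 2-fold with library totals. In RT + shHDAC6 against RT, 6 of 8 epithelial markers had a ratio above 0 (median 0.29 over the 8), beside 9421 of 19013 genes tested. The mesenchymal marker VIM did too (0.31). The summed epithelial level was 374 TMM CPM in Ctrl, 464 with RT and 369 with RT + shHDAC6. The markers thus moved in both directions, and the part of such differences in the members' levels was not tested.

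**Figure D4:**
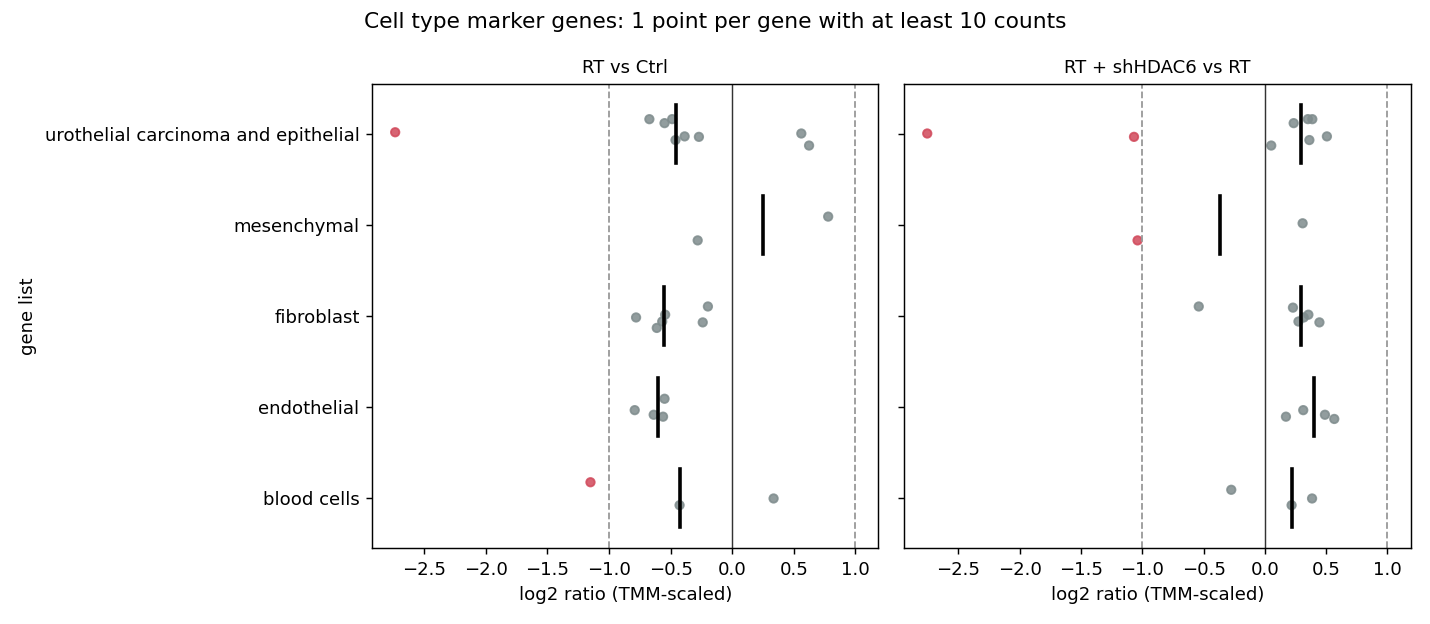
Log2 ratios after TMM scaling for cell type marker genes that reached 10 counts in the higher library (points), by marker list, in RT against Ctrl and in RT + shHDAC6 against RT, with black bars for medians, dashed lines at a 2-fold difference and red points past it. The 6 fibroblast and 4 endothelial markers lie below 0 in RT against Ctrl (medians -0.56 and -0.60), and all but 1 of them lie above 0 in RT + shHDAC6 against RT.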

How the data were processed

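Reads had been trimmed (cutadapt) and aligned to GRCh38 with STAR (2.6.1a in the submitters' processing notes, another version in the study's methods). The authors counted them with featureCounts over the genes of GENCODE release 28 and deposited raw counts. The labels name a TruSeq stranded mRNA kit and the methods a SureSelect kit. Strand setting and multiple matches were not stated. Symbols, positions and exon lengths came from GENCODE release 44, which matched 57754 of 58381 genes. TMM factors came from edgeR 4.0.16 and median-of-ratios factors from DESeq2 1.42.0 (R 4.3.3), and ratios, with a count of 0 set to 0.5, from Python 3.11.15, numpy 2.4.6, pandas 2.3.3 and scipy 1.17.1. Neither tool's test could be run with 1 library per group. A gene past 2-fold had to reach 10 counts in the higher library. A count of 0 allows up to 3 counts, or 0.0718 to 0.0847 CPM. The study's NOISeq rule (TMM, probability over 0.4) was re-implemented with numba 0.67.0 as an alternative, because its noise is simulated. The noise settings, 5 samples of 20% of the depth, were chosen here and are not stated by the study, so its calls may differ. Other alternatives were scaling, filters, the replacement of zeros and a fold of 1.5. The scripts were tested on simulated data. Figures used matplotlib 3.10.9.

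The members and lists were chosen with earlier results of these data known. Named are the members, HDAC6, pathway list genes past 2-fold with at least 100 counts, the 2 nearest genes to each of 2 members, genes that share exon length with members, and, chosen after their values were seen, MSTN, NOG, TWSG1, ACVR1B, ACVR2A, INHA, INHBB, SMAD3, LTBP1 to LTBP4, ITGAV, ITGB5, COL1A1 and COL1A2, and the marker genes. A gene that this rule covers is not reported here.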

Additional observations from a re-analysis of the deposited data

How the results depend on the processing

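Of 150 log2 ratios of the members under other scalings or another replacement of zeros, 129 stayed within the counting interval of the TMM value. No ratio past 2-fold changed sign, but none could, because no other scaling moved a ratio by more than 0.22 from TMM. The replacement of zeros could not change any ratio either, as every member had counts in every library. Among the smaller ratios, library totals turned the sign of TGFBR2 in RT against Ctrl (-0.08), which NOISeq had called, and of TGFBR1 in RT + shHDAC6 against Ctrl (-0.11). TGFB2, INHBA and FST stayed past 2-fold under every scaling in RT + shHDAC6 against RT (TGFB2 -2.00 to -1.91, INHBA -1.96 to -1.87, FST -2.14 to -2.04), as did FST (1.67 to 1.95), INHBA (1.41 to 1.69) and TGFBR3 (1.04 to 1.32) in RT against Ctrl. Scaling by library totals gave 1 member 2-fold lower in RT against Ctrl, in place of 0 (BMP4, -1.06), and 0 higher in RT + shHDAC6 against Ctrl, in place of 1. Upper quartile scaling also gave 0 there. With TMM, a fold of 1.5 gave 6 members higher and 1 lower in RT against Ctrl, in place of 3 and 0. It gave 1 higher in RT + shHDAC6 against RT, in place of 0. Both changes follow from the lower threshold. NOISeq gave 8 higher and 1 lower in RT against Ctrl, 8 lower in RT + shHDAC6 against RT in place of 3, and 3 higher and 4 lower in RT + shHDAC6 against Ctrl in place of 1 and 1. The minimum count did not change these counts, and the replacement of zeros could not. No paired analysis was possible because there was 1 library per condition and the labels carry no replicate numbers, and for the same reason no library could be left out. At this depth BMP4, with 14 to 34 counts, allowed no statement on direction.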
